A study of Arabidopsis thaliana with 4 samples.

Results

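The subject is a group of 28 nuclear genes of Arabidopsis thaliana whose signal was at least 3-fold lower in seedlings given GSH, out of 13276 nuclear genes measured by a probe set of their own. GSH is reduced glutathione, the thiol tripeptide that plant cells use to buffer redox state, store sulfur and conjugate foreign compounds. The 28 were chosen by their measured log2 values. Each gene was represented by 1 probe set, its brightest over the 4 arrays on average, and was kept where its mean with GSH lay at least 3-fold under the control mean and both GSH arrays lay below both control arrays. That rule left 34 nuclear genes, 0.256% of those measured, and 6 of them (LCR69, AT5G11420, AT3G08030, XTH16, EXPA4 and WRKY53) were set aside by name or symbol. The difference between the groups thus selected the members, so their differences are a description, no test of them is given and nothing is read from that share.

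Both groups are whole seedlings of ecotype Columbia with an age of 15 days after germination, 2 arrays from seedlings kept with GSH for 72 hours and 2 arrays from control seedlings. The dose of GSH, and whether the controls were kept for the same further time, are not given in the sources used here. The titles call the replicates biological, without saying whether they were grown as separate cultures, and errors and p-values describe the spread between these arrays. The free-text descriptions of all 4 samples speak of embryos instead. They go against the source, tissue and age labels, which were followed here. In whole seedlings, fewer cells of a type and less RNA per cell cannot be told apart.

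A plant cell meets its surroundings through a wall of cellulose, hemicellulose and pectin, laid down and remodelled by secreted enzymes and structural proteins. Pectin methylesterases remove methyl groups from pectin in the wall and so change how firmly its chains bind calcium and each other. Small secreted peptides, membrane receptors and calcium-binding proteins carry signals across that boundary.

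The members' differences from control ran from -3.20 to -1.61 log2 units with a median of -1.79, against a median of -0.00 over all 13276 nuclear genes. On a linear scale the members kept 10.9% to 32.8% of their control signal, with a median of 28.9%. Most sat near the limit of the rule. A decrease of 4-fold or more was seen in 7 of the 28, namely AT1G09310, AT2G10940, AT5G02540, AT2G24600, AT5G16030, AT1G12080 and HIS1-3, and the other 21 lay between 3-fold and 4-fold. At a limit of 2-fold, 170 nuclear genes (1.28%) were lower without overlap before any were set aside.

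**Figure D1:**
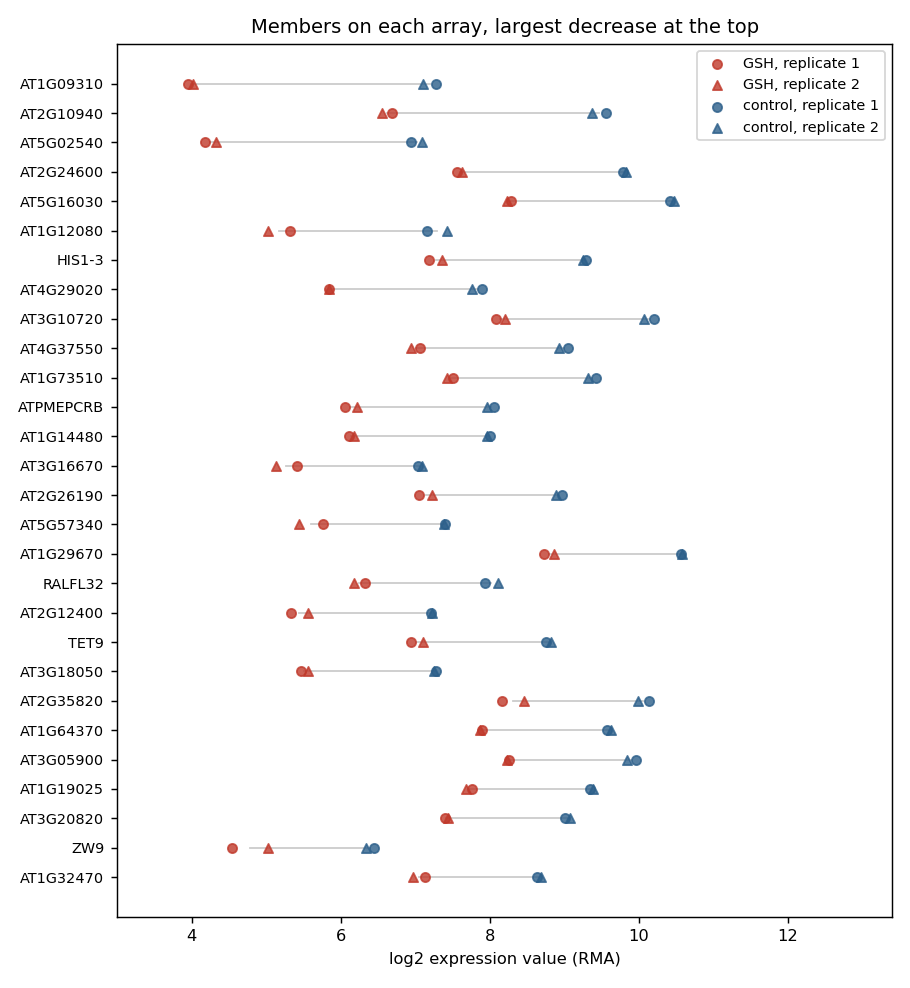
Log2 expression value of each of the 28 members on the 2 GSH arrays (red) and the 2 control arrays (blue), with circles for replicate 1, triangles for replicate 2 and a grey line joining the group means. Genes run from the largest decrease (AT1G09310, -3.20) at the top to the smallest (AT1G32470, -1.61), and GSH and control points do not overlap in any row, as the rule requires.

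Proteins of the wall and of the space outside the cell made up 7 of the members. Their differences from control had a median of -1.87 log2 units. A symbol is given in the gene tables for 5 of the 28 members (HIS1-3, ATPMEPCRB, RALFL32, TET9 and ZW9). The same share over all nuclear genes was not worked out, so nothing is read from that count. For the 23 listed by locus code alone, the protein family named here is general background and not a result of these data, and it is left out where it is not certain.

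AT2G10940, of the superfamily of lipid transfer proteins and seed storage albumins, had log2 values of 6.69 and 6.56 on the GSH arrays, against 9.56 and 9.37 on the control arrays (difference -2.84 ± 0.09, SE, n = 2 arrays per group, as for all errors of differences below). That is 7.18-fold lower, the second largest decrease of the 28. AT4G29020, a glycine-rich protein, stood at 5.84 on both GSH arrays, against 7.90 and 7.77 on the control arrays (-1.99 ± 0.08). Its GSH replicates lay closer together than those of any other member, 0.01 log2 units apart.

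The pectin methylesterase genes among the members were AT3G10720 and ATPMEPCRB. Most members lay near the limit of the rule, so nothing is read from how alike the decreases of both genes were. AT3G10720 had 8.09 and 8.20 with GSH, against 10.20 and 10.07 in controls (-1.99 ± 0.08). ATPMEPCRB, also called PME41, had 6.05 and 6.22 with GSH, against 8.05 and 7.97 in controls (-1.87 ± 0.09). In each gene the distance between groups was over 10 times the larger distance between replicates, a high ratio that the rule favours.

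AT1G29670, of the GDSL family of esterases and lipases, had the brightest control signal among the members, 8.73 and 8.87 with GSH against 10.57 and 10.58 in controls (-1.78 ± 0.08). AT3G16670, of a family of pollen allergen-like and extensin-like secreted proteins, had 5.42 and 5.13 with GSH against 7.04 and 7.09 in controls (-1.79 ± 0.11). Its GSH arrays lay further apart than its control arrays. RALFL32, one of the RALF-like peptides, which are secreted and signal through receptor kinases at the cell surface, had 6.32 and 6.17 with GSH against 7.93 and 8.11 in controls (-1.77 ± 0.09).

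Membrane proteins and signalling proteins made up 6 members, with a median difference of -1.78 log2 units. AT2G24600, an ankyrin repeat protein of a family with members in plant defence, had 7.56 and 7.63 with GSH against 9.78 and 9.82 in controls (-2.21 ± 0.07), 4.62-fold lower. AT1G14480, also an ankyrin repeat protein, had 6.11 and 6.17 with GSH against 8.01 and 7.96 in controls (-1.85 ± 0.07). Replicates of both genes lay within 0.08 log2 units of each other in either group.

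AT2G26190, of a family of calmodulin-binding proteins, had 7.05 and 7.23 with GSH against 8.97 and 8.89 in controls (-1.79 ± 0.09). TET9 is a tetraspanin, a protein with several membrane spans of a family that organises membrane domains. It stood at 6.95 and 7.10 with GSH against 8.75 and 8.83 in controls (-1.77 ± 0.08). AT3G18050, annotated as a GPI-anchored surface protein, had 5.47 and 5.56 with GSH against 7.28 and 7.25 in controls (-1.75 ± 0.07). AT3G20820, a leucine-rich repeat protein, had 7.39 and 7.44 with GSH against 9.01 and 9.08 in controls (-1.63 ± 0.07). In all 4 of these genes the groups were separated by at least 1.57 log2 units.

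Metabolic enzymes made up 4 members. AT5G02540, of the short-chain dehydrogenases with a Rossmann fold, had 4.18 and 4.33 with GSH against 6.94 and 7.09 in controls (-2.77 ± 0.09), 6.81-fold lower. AT4G37550, of the acetamidase and formamidase family, had 7.07 and 6.94 with GSH against 9.05 and 8.93 in controls (-1.99 ± 0.08). AT2G35820, related to ureidoglycolate hydrolases of purine breakdown, had 8.16 and 8.46 with GSH against 10.13 and 9.98 in controls (-1.74 ± 0.11). AT1G32470 encodes an H protein of the glycine cleavage system, the mitochondrial complex that releases carbon dioxide in photorespiration. It had 7.13 and 6.97 with GSH against 8.63 and 8.69 in controls (-1.61 ± 0.08), the smallest decrease of the 28.

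HIS1-3, the linker histone known for its induction by drought, had 7.19 and 7.36 with GSH against 9.29 and 9.26 in controls (-2.0 ± 0.08), close to 4-fold lower. AT1G19025, of a family of metallo-beta-lactamase proteins named for DNA repair, had 7.76 and 7.68 with GSH against 9.35 and 9.39 in controls (-1.65 ± 0.07). AT1G19025 was the 1 member with a second probe set of its own, and the probe sets disagreed. The second one stood at 3.84 and 3.83 with GSH against 3.87 and 3.95 in controls, a difference of -0.07 at a signal in the lowest 25% of all probe sets. The membership of AT1G19025 thus rests on the brighter probe set.

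The remaining 9 members have no function that is certain enough to state, apart from the protein domains of AT1G09310 and ZW9. AT1G09310, of a plant family with a domain of unknown function, showed the largest decrease of all members. It had 3.95 and 4.03 with GSH against 7.28 and 7.10 in controls (-3.20 ± 0.09), 9.21-fold lower. Its GSH mean of 3.99 was the only one of the 28 in the lowest 25% of probe sets, those at or under 4.06, where no detection call shows a signal above background and the size of a decrease is uncertain.

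AT5G16030 had 8.28 and 8.24 with GSH against 10.41 and 10.47 in controls (-2.18 ± 0.07), and AT1G73510 had 7.50 and 7.42 against 9.42 and 9.32 (-1.91 ± 0.08). AT1G12080 had 5.32 and 5.02 with GSH against 7.16 and 7.43 in controls (-2.12 ± 0.13), with replicates about 0.3 log2 units apart in each group, the widest control spread of any member. For AT5G57340 the values were 5.76 and 5.45 with GSH against 7.40 and 7.38 in controls (-1.79 ± 0.11), and for AT2G12400 they were 5.33 and 5.56 against 7.21 and 7.22 (-1.77 ± 0.09). Both had control replicates much closer together than their GSH replicates.

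AT1G64370 had 7.90 and 7.87 with GSH against 9.57 and 9.62 in controls (-1.71 ± 0.07), and AT3G05900 had 8.26 and 8.23 against 9.95 and 9.84 (-1.65 ± 0.08). ZW9, a protein with a TRAF-like domain, had 4.55 and 5.02 with GSH against 6.44 and 6.34 in controls (-1.61 ± 0.15). Its GSH replicates were 0.48 apart, the widest of the 28, and its groups were separated by 1.32, the smallest separation.

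At the limit of the rule, AT3G20820 (-1.63), ZW9 (-1.61) and AT1G32470 (-1.61) lay just inside, and AT5G18470 (-1.57), AT2G43620 (-1.56) and AT4G23820 (-1.55) just outside. The mean log2 values of AT5G18470 were 7.75 with GSH and 9.33 in controls, those of AT2G43620 were 8.62 and 10.18, and those of AT4G23820 were 6.90 and 8.45. The step between the last member and the first gene outside was smaller than the SE of any member's difference. Centring the arrays on their medians left ZW9 and AT1G32470 outside and 26 members inside.

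**Figure D2:**
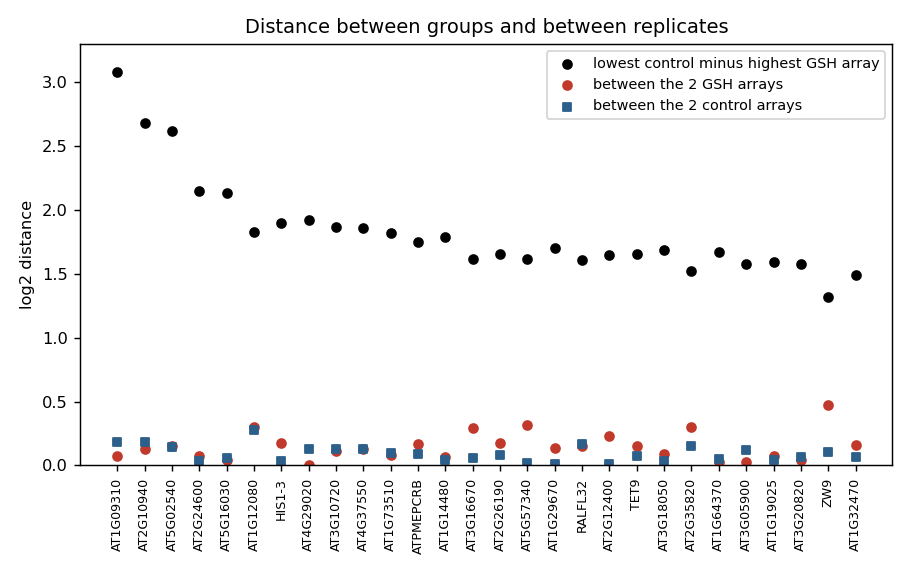
Log2 distance between the lowest control and the highest GSH array (black), between the 2 GSH arrays (red) and between the 2 control arrays (blue) for each member, in the order of decrease. The distance between groups runs from 1.32 (ZW9) to 3.08 (AT1G09310), while distances between replicates stay at or under 0.48.

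Replicates agreed closely beside the size of these decreases, as far as 2 arrays per group can show. The distance between the GSH replicates had a median of 0.13 log2 units over the members, against 0.08 between the control replicates. Over all nuclear genes the same medians were 0.09 and 0.08. GSH replicates lay further apart than control replicates in 18 of 28 members. No single array set the direction of these distances: GSH replicate 1 was the higher one in 13 members and GSH replicate 2 in 15, and control replicate 1 was higher in 15 and control replicate 2 in 13. The separation between the groups was 2.77 to 37.5 times the larger distance between replicates, with a median of 13.8, and in 23 members the separation alone was 3-fold or more. The rule asked for a large difference without overlap, so high ratios are partly built in and only describe the members. Groups lower with GSH and without overlap occurred in 31.7% of all nuclear genes at any size of difference. An exact permutation test of 2 arrays against 2 cannot go below p = 0.333, so none is given.

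The members started from bright signals. A signal depends on how well a probe set binds as well as on how much transcript there is, so its place on the scale of the array is no measure of abundance between genes. The members' control means had a median of 8.86 and ran from 6.39 for ZW9 to 10.57 for AT1G29670, whereas the control median of all nuclear genes was 4.88. All 28 members lay above that median in controls, and 20 lay in the highest 25% of nuclear genes. The control mean was under 7 in 1 member, from 7 to 8 in 9, from 8 to 9 in 6, from 9 to 10 in 8 and at 10 or more in 4. The 4 brightest were AT1G29670, AT5G16030, AT3G10720 and AT2G35820, of which AT1G29670 and AT3G10720 are enzymes of the secreted group.

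The rule itself keeps dim genes out, because a gene cannot fall 3-fold on this scale unless its control signal lies well above the lowest values, which reached 2.99. Of the 13276 nuclear genes, 4264 had control means within the members' range, and 0.774% of these were at least 3-fold lower without overlap. Above the brightest member lay 417 nuclear genes, and the largest decrease among them was -1.46. Nuclear genes that were at least 3-fold higher with GSH without overlap numbered 82 (0.618%), and their control means had a median of 6.54, with 39 of the 82 under the dimmest member.

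With GSH the members' signals had a median of 7.01, against 8.86 in controls, and 25 of 28 still lay above the median nuclear gene of the GSH arrays. The exceptions were AT1G09310, AT5G02540 and ZW9. The median rank of the members was percentile 70.8 of nuclear genes with GSH and 88.3 in controls. AT1G09310 moved furthest, to percentile 25.8 with GSH against 72.8 in controls. AT1G29670 moved least, to percentile 87.5 with GSH against 96.9 in controls.

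**Figure D3:**
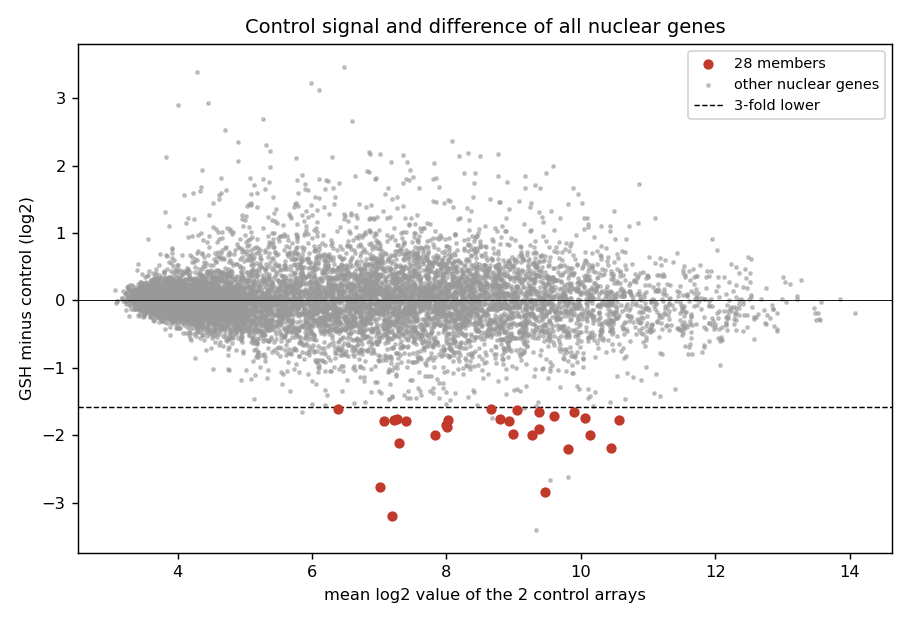
Difference GSH minus control (log2) against the mean log2 value of the 2 control arrays, with the 28 members in red and all other nuclear genes in grey. The dashed line marks 3-fold lower; members lie between control means of 6.39 and 10.57, and grey points under the line are the 6 genes set aside by name or symbol.

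Most relatives of the members that could be found did not pass the test for a change, and neither did most nuclear genes. They were looked for by symbol and name in the gene tables, which cover few of the families behind locus codes, and 2037 nuclear genes (15.3%) were lower and 2036 (15.3%) higher at a limma adjusted p under 0.05. Among the other 3 pectin-acting enzyme genes with a name, PMEPCRF, for a pectin methylesterase, fell by 0.81 ± 0.08 log2 units, to 7.78 with GSH against 8.59 in controls (limma adjusted p = 0.000455). PME61 (-0.11 ± 0.15) and AT4G02300 (0.03 ± 0.08) did not pass, and both were dim, with means of 4.44 or less.

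The RALF-like, tetraspanin and H1 histone families were added after the members were known. Of 10 other RALF-like genes, 1 fell, 1 rose and 8 did not pass, with a median difference of 0.00. RALFL34 fell by 1.12 ± 0.11 log2 units, to 6.44 and 6.75 on the GSH arrays against 7.65 and 7.78 on the control arrays (limma adjusted p = 0.000551). RALFL18 rose by 0.36 ± 0.07 (limma adjusted p = 0.00802). The bright RALFL33 (0.15 ± 0.07, mean 12.41 with GSH and 12.26 in controls) and RALFL22 (-0.02) did not pass. In 4 of the 10, both group means lay in the lowest 25% of probe sets, where a decrease could hardly be seen.

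Of 14 other tetraspanin genes, 3 fell, 0 rose and 11 did not pass. TET6 (-0.43 ± 0.07), TET3 (-0.39 ± 0.08) and TET7 (-0.33 ± 0.08) fell, at limma adjusted p-values of 0.00372, 0.00994 and 0.0193. That they fell less than TET9 follows from the rule, which chose TET9 for its decrease. The brightest of the family, TET8, stood at 12.44 with GSH against 12.64 in controls and did not pass (-0.20 ± 0.08). HON4, the 1 other gene found by name for the H1 histones, fell by 1.05 ± 0.07 log2 units, to 8.75 and 8.70 with GSH against 9.80 and 9.75 in controls (limma adjusted p = 0.000105). H1 histone genes listed by locus code alone can be missed by this search. AT1G06760, an H1 histone by general background, was missed in this way and stood at 9.70 with GSH against 9.67 in controls (0.03). The value of HON4 thus says nothing of the family as a whole.

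**Figure D4:**
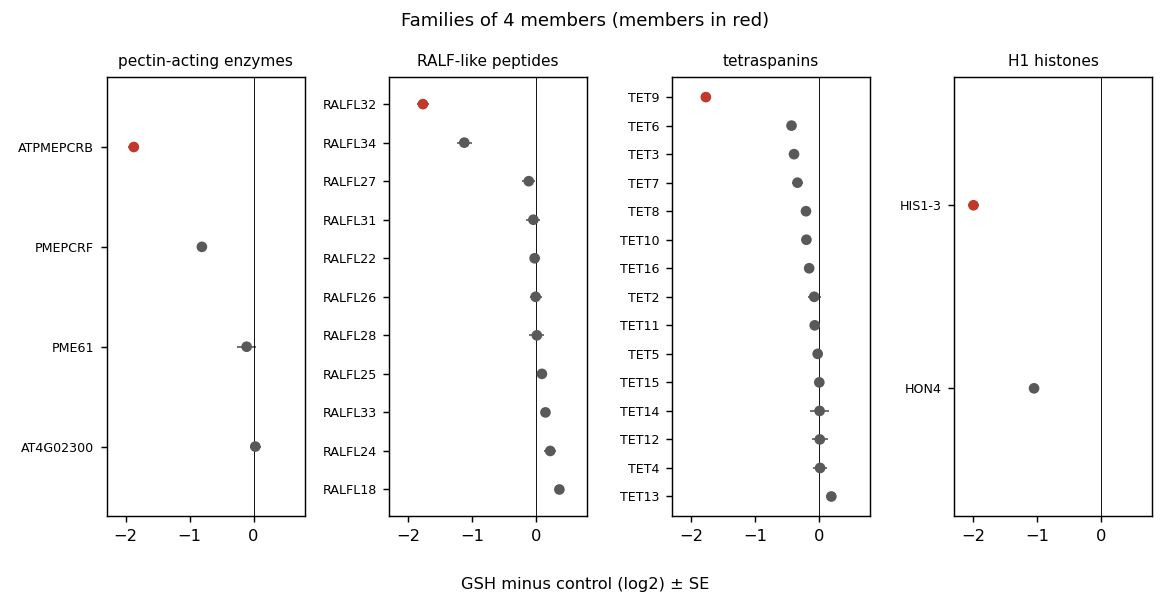
Difference GSH minus control (log2, points) with its moderated standard error (bars) for the genes of 4 families that hold a member, members in red. Only genes found by symbol or name are drawn, so AT3G10720 (-1.99), the other pectin methylesterase among the members, is missing. The H1 histone gene AT1G06760 (0.03) is missing for the same reason. The member is the lowest in each panel because members were chosen by their decrease. Next in their panels are RALFL34 (-1.12), HON4 (-1.05) and PMEPCRF (-0.81).

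Of 22 families searched by keyword in symbols and names, 15 had a measured gene and only the pectin list held a member. The search missed members listed by locus code alone. AT3G10720 and the ankyrin, lipid transfer, GDSL, glycine-rich and short-chain dehydrogenase members described above are therefore not on the lists. Of the 125 other genes on the lists, 26 fell and 29 rose, where 15.3% of all nuclear genes were called in each direction. Among lists near the functions of the members, 3 of 37 glycosyl hydrolases fell and 8 rose, 2 of 7 peroxidases fell and 2 rose, and 0 of 3 extensin-like, proline-rich and arabinogalactan proteins passed in either direction. In signalling, 4 of 9 calcium-binding and calmodulin-like genes rose and 0 fell, while 5 of 6 genes named as kinases fell and 0 rose. These are small lists of genes found by name, and kinases listed by locus code alone can be missing, so nothing is read from them about either class. The single other ankyrin gene found by name rose. Transcription factors of the WRKY list fell in 3 and rose in 2 of 7, and the list includes WRKY53, set aside above. The 2 AP2/ERF genes went 1 each way. Cysteine-rich peptides fell in 5 and rose in 8 of 31, a list that includes LCR69. Membrane transporters fell in 3 and rose in 2 of 11, and light-harvesting and photosystem proteins fell in 2 of 5. Some lists held 1 gene, found by a keyword and not checked for its function. The gene on the aquaporin list (AQI) fell, the one on the short-chain dehydrogenase list rose, and the one on the F-box list did not pass.

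The members were spread over all 5 nuclear chromosomes, with 9 on chromosome 1, 6 on 2, 5 on 3, 5 on 4 and 3 on 5. That is 32.1%, 21.4%, 17.9%, 17.9% and 10.7%, where all nuclear genes measured had 25.7%, 16.3%, 20.5%, 14.6% and 22.5%. Their RefSeq genes spanned 866 to 3559 bases with a median of 2056, against a median of 2111 over nuclear genes. No 2 members were next to each other in the RefSeq order of protein-coding genes.

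Measured genes beside the members were called lower or higher about as often as all nuclear genes. Of the 56 neighbouring places, 31 held a gene with a probe set of its own in the annotation. Those 31 were mostly genes listed by locus code, whereas many genes at the other places carry a symbol, such as CNGC14, MKK9 and MPK9. The annotation thus left out many genes with a symbol here. Their differences had a median of -0.02 log2 units and ran from -0.71 to 0.62, so none changed by 2-fold. By limma, 5 of the 31 (16.1%) fell and 5 (16.1%) rose, beside 15.3% each way over all nuclear genes. AT1G09320, next to AT1G09310, fell the furthest (-0.71, to 6.59 with GSH against 7.31 in controls). AT3G16660, next to AT3G16670 and of the same protein family, fell by 0.47, to 6.53 with GSH against 7.0 in controls. AT1G29660, the GDSL neighbour of AT1G29670, stood at 4.04 with GSH against 4.1 in controls and did not pass.

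Some signals of RNA material moved along with the members. The array's probe set for 25S rRNA gave 8.19 and 8.0 on the GSH arrays, against 11.11 and 11.01 on the control arrays (-2.97 ± 0.09). The probe set for 5S rRNA stood at 3.86 and 3.91 with GSH against 3.75 and 3.80 in controls (0.11 ± 0.07), with both means under the limit of 4.06 for the lowest 25% of probe sets. Plastid genes had a median difference of -0.60 over 69 genes, and 14 of them were at least 3-fold lower. The 27 probe sets for spiked-in Bacillus RNA had a median of -0.26. The 3' minus 5' signal of 6 pairs of actin, GAPDH and ubiquitin probe sets differed between the groups by -0.11 to 0.12 log2 units. Medians over all probe sets were 5.33 and 5.34 on the GSH arrays and 5.37 and 5.35 on the control arrays. The part of these signals in the members' decrease was not tested.

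Markers of seedling tissues were scarcely covered. Of 17 genes listed for green tissue only RCA, for Rubisco activase, was found, at 10.46 with GSH against 10.70 in controls (-0.24 ± 0.07, limma adjusted p = 0.0355). The 3 found of 13 root markers (PYK10, EXPA7 and EXPA18) had group means between 3.94 and 4.33 and did not pass. Of 12 markers of epidermis and guard cells 3 were found and did not pass (-0.20 to -0.10), and of 9 markers of meristems and dividing cells 2 (0.13 and 0.17). Summed on the linear scale, the root markers came to log2 values of 5.64 and 5.80 with GSH against 5.84 and 5.80 in controls, and the epidermal ones to 6.29 and 6.38 against 6.53 and 6.47. The meristem markers came to 4.89 and 4.96 with GSH against 4.72 and 4.83 in controls. No marker of the vascular list was found. Whether tissue makeup moved with the members was not tested beyond these values.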

How the data were processed

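Gene expression was measured on 4 one-colour Affymetrix arrays with biotin-labelled cRNA made from 6 µg of total RNA, per the labels' protocols. The authors deposited 1 log2 value for each probe set on each array. Expression Console (Affymetrix) and RMA are named as the tools used, per the submitters' processing notes. Versions are not given in the sources used here. RMA forces like distributions on the arrays, so a shift shared by most transcripts would not show. No detection calls were used, and the number of arrays limits the precision.

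Of 22746 probe sets other than the 64 controls, 13513 carry 1 gene in the platform annotation, 503 several and 8730 none. Genes are called measured here where a probe set carries them alone in that annotation, so a gene not measured can still be on the array. Symbols were updated through RefSeq TAIR10.1 by gene identifier (13436 matched, 77 kept the annotation's symbol). Genes neither on the plastid chromosome nor named as mitochondrial count as nuclear, 59 of them without a RefSeq place. The build behind the array is not given, so no coordinates are printed.

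Groups were fitted in limma 3.58.1 under R 4.3.3 (treatment as the one factor, 2 residual and 4.55 prior degrees of freedom, Benjamini-Hochberg adjustment over all 22746 probe sets, threshold 0.05). Errors of differences are moderated standard errors. Every member is named with its values. From each family that holds a member, up to 3 other genes with the smallest unadjusted p are named, and RALFL22, RALFL33, TET8 and 3 neighbouring genes were chosen after their values were seen. The members, functional groups and lists were chosen with earlier results of these data known. Promoter motifs were not analysed here.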

Additional observations from a re-analysis of the deposited data

How the results depend on the processing

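The number of members depends mostly on the threshold, with 163 genes at 2-fold (all 28 members among them) and 7 at 4-fold, against 28 at 3-fold. It was 26 with arrays centred on their medians, 29 with quantile normalization, 27 with the dimmer probe set of a gene or the mean of its probe sets, and 28 with the lowest 25% of probe sets left out. Leaving out 1 array gave 28 to 31 genes, of which 27 were members each time. ZW9 or AT1G32470 was the one lost, and with the dimmer or averaged probe sets it was AT1G19025. Asking for a separation of 3-fold between the groups, chosen after seeing the data, left 23.

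The members' median difference was -1.88 to -1.82 with 1 array left out (-1.88 without GSH replicate 2). Their median control value was 8.72 with the dimmer probe set and 8.86 with either control array alone.

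Over all probe sets 7680 passed limma (3692 higher, 3988 lower), 6186 to 6248 with 1 array left out and 7772 (4043 higher, 3729 lower) with arrays centred on their medians. Same-numbered arrays did not deviate together (correlation of -0.10 over 22746 probe sets). With 2 arrays per group this cannot settle whether the numbers pair the samples. With the replicate number as a block 6235 passed, and 6898 with the numbers crossed, added after seeing the data. With the block 47 of the family genes passed, against 55 without it, with 3 in place of 5 in the WRKY list and 1 in place of 2 in the AP2/ERF list. Among the other tetraspanins 3 passed, against 2 with the block and 4 with quantile normalization. The low end of the scale limits what can be said of dim genes.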

Other observations

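Beside the named genes, 55 of the 9233 probe sets that carry several genes or none in the annotation were also at least 3-fold lower with GSH without overlap, down to -3.70 log2 units. They outnumber the 34 nuclear genes found among probe sets of 1 gene, so the 28 members are a part of what was lowered to this degree, and the others were not named here.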
